A study of Danio rerio with 3 samples.

Results

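CD8 T cells of the zebrafish kidney marrow were selected on 4 genes from a library of sorted marrow lymphocytes. A marrow cell was counted as a CD8 T cell when it held at least 1 unique molecular identifier (UMI, a tag that marks 1 captured RNA molecule) of cd8a or cd8b, at least 1 of FP236356.1 (current symbol trbc1, a T cell receptor beta constant gene) and 0 of cd4-1. This rule kept 68 of 983 marrow cells, a share of 6.92% with an exact binomial 95% interval of 5.41 to 8.69%, and of 5948 cells in the whole series. They were compared with 196 marrow cells that held cd4-1 UMIs and no cd8a or cd8b UMI, called CD4 cells here. The members were also split into 21 cells with and 47 cells without an il2rb UMI. A further 636 marrow cells with trbc1 and none of these coreceptors were used as a reference and are called coreceptor-negative cells. Because UMIs are caught by chance, the coreceptor-negative cells may include CD4 and CD8 cells whose coreceptor UMI was missed.

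All fish carried the lck:GFP transgene, a promoter of lck, which encodes a kinase of T cells, joined to the coding sequence of green fluorescent protein. Marrow and scale cells came from the dim GFP gate and thymus cells from the bright GFP gate, and each tissue gave 1 library. The labels give neither the age nor the sex of the fish, nor how many fish were pooled. The rule found 18 CD8 cells in the scale library and 911 in the thymus library, and 0 marrow cells shared a barcode with a called cell of either.

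CD8 T cells recognise peptides that class I major histocompatibility complex (MHC) molecules display, and kill infected or transformed cells by releasing granules that hold granzymes and pore-forming proteins. The CD8 coreceptor is a dimer of alpha and beta chains, encoded in fish by cd8a and cd8b, or a pair of alpha chains. Conventional T cells bear the alpha-beta dimer, whereas some innate-like T cells and natural killer (NK) cells of mammals bear alpha chains alone. CD4 T cells recognise peptides on class II MHC molecules and give help or restrain other cells. In fish the kidney marrow makes blood cells, as bone marrow does in mammals, and also holds mature lymphocytes.

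With 1 library and no replicate, no test between conditions could be made. Levels are UMIs summed over the cells of a group per 1000000 UMIs of that group (CPM). Every interval is an exact 95% interval (Poisson for levels, Clopper-Pearson for shares, conditional binomial for ratios) and covers counting error alone, not spread between cells or fish. The 68 CD8 cells held 263209 UMIs, with a median of 3578 per cell and a range from 1398 to 11398. The CD4 cells held 1114097 UMIs, with a median of 4318 and a range from 1408 to 41799. In bulk sums of this kind, fewer cells with a transcript and less of it per cell give the same level, so the number of cells with a UMI stands beside each level.

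The label was checked against markers that the rule did not use. None of the 68 CD8 cells held a UMI of cd4-2.2, a second CD4 gene of fish, which 47 of 196 CD4 cells held. Of the 11 B cell markers none had a UMI in the CD8 cells, and neither did the markers of thrombocytes, kidney tubule or endothelial cells. Among 11 macrophage or dendritic cell markers cd74a alone had UMIs, and the other 10 stood at 0. The recombination genes rag1 and rag2 were also at 0, where 0 UMIs allow up to 11.4 CPM. Of the 4 matched immature thymocyte markers 1 had UMIs, 5 in 3 CD8 cells. The list summed to 19.0 CPM in CD8 cells, 7.18 CPM in CD4 cells and 9.48 CPM in barcodes under 100 UMIs. Stem or progenitor markers had UMIs in 8 CD8 cells, with sums of 30.4 CPM in CD8 and 75.4 CPM in CD4 cells. Sums for gamma-delta or innate-like T cell markers were 26.6 and 45.8 CPM. The summed level of erythroid markers was 452 CPM in the CD8 cells and 375 CPM in the CD4 cells, against 37623 CPM in the 518348 barcodes with fewer than 100 UMIs, taken here as a measure of free RNA. Among the neutrophil markers, 3 of 9 had UMIs, with a summed level of 483 CPM against 498 CPM in CD4 cells. In the CD8 cells this was mainly srgn, which is also on the list of killing genes used below. It gave 64 of 64 UMIs in cells with il2rb and 61 of 63 in those without. Of 7 T cell markers outside the rule, 5 had at least 30 UMIs in CD8 and CD4 cells together, and none was past 2-fold. Their median log2 ratio of CD8 over CD4 cells was −0.44 against 0.15 over all genes, and CABZ01080371.1 had 0 UMIs in CD8 cells. On that list, the T cell kinase gene lck was present in both groups and stood at 129 CPM in CD8 cells (89.5 to 181) and 119 CPM in CD4 cells (100 to 142). The transgene itself, gfp, stood at 118 CPM in CD8 cells (80.0 to 167) and 96.9 CPM in CD4 cells (79.5 to 117).

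The genes that chose the cells are given as a description. The alpha chain gene cd8a had 97 UMIs in 51 of 68 cells and the beta chain gene cd8b had 78 UMIs in 41 cells, with at most 7 and 6 UMIs in a cell. Both chains were caught together in 24 cells, cd8a alone in 27 cells and cd8b alone in 17 cells. A single CD8 UMI was the only evidence in 27 cells, and 41 cells held 2 or more. Just outside the rule lay 2 cells with a CD8 UMI but no trbc1 UMI and 2 cells with both CD8 and cd4-1 UMIs. Shares in the cells just inside and those further in are given without intervals, and median depth was 3268 and 3817 UMIs. An il2rb UMI was found in 44.4% of the cells with 1 CD8 UMI and 22.0% of those with 2 or more, a gzmk UMI in 59.3 and 68.3%, and a cd74a UMI in 85.2 and 92.7%. In the 26 cells with 3 or more CD8 UMIs the il2rb share was 26.9%.

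**Figure D1:**
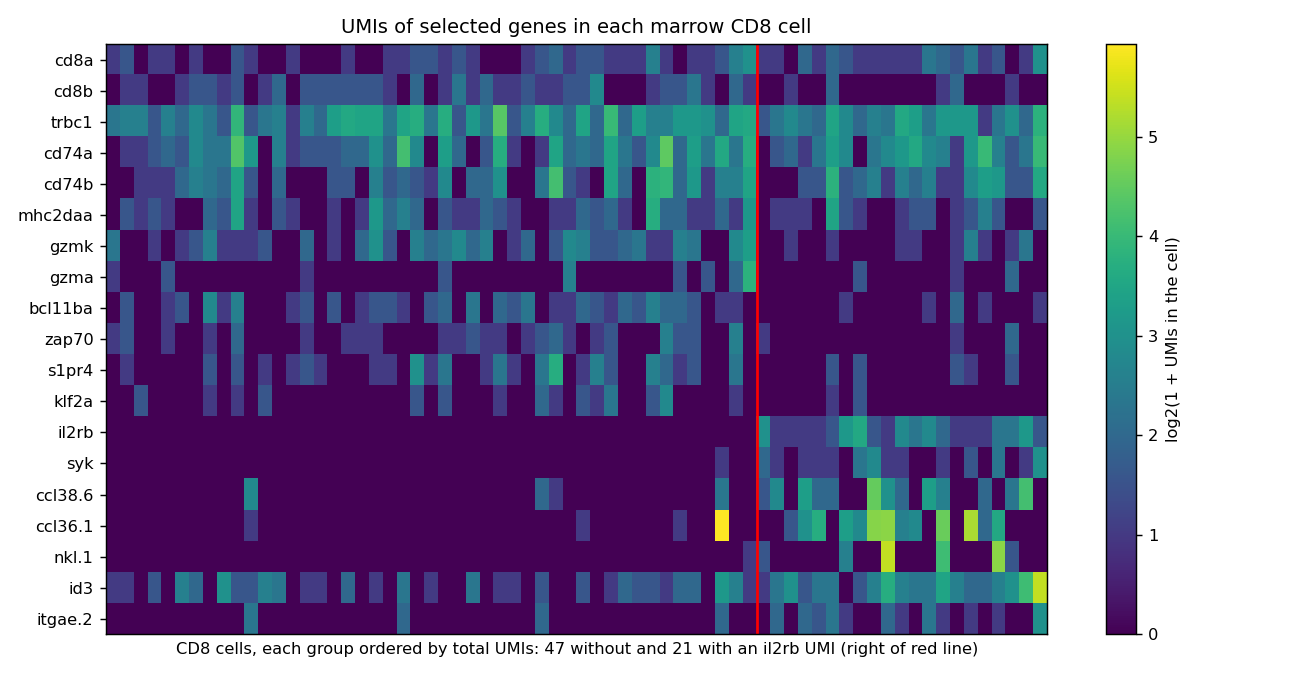
UMIs of selected genes (rows) in each of the 68 marrow CD8 cells (columns), coloured as log2(1 + UMIs), with 47 cells without an il2rb UMI on the left of the red line and 21 with one on the right. UMIs of cd74a are spread over 61 cells on both sides, whereas ccl38.6 and syk UMIs lie mainly on the right and cd8b, bcl11ba and zap70 UMIs mainly on the left.

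A feature that most CD8 cells shared, and that the rule did not use, was expression of class II MHC genes. The invariant chain gene cd74a (ENSDARG00000009087), whose protein guides class II molecules to the compartment where they are loaded with peptide, had a UMI in 61 of 68 CD8 cells, with a median of 4 and a maximum of 21 UMIs per cell. It had a UMI in 33 of 196 CD4 cells. Its level was 1329.7 CPM in CD8 cells (1194 to 1477) and 287 CPM in CD4 cells (257 to 320), a ratio of 4.63 (3.97 to 5.40). The coreceptor-negative cells lay between them, with 792 CPM and a UMI in 420 of 636 cells. After each cell was thinned to 1000 UMIs, a cd74a UMI remained in 61.8% of CD8 cells (49.2 to 73.3%) and 7.65% of CD4 cells (4.35 to 12.3%).

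The second invariant chain gene and the class II chains showed the same order. The paralogue cd74b stood at 935 CPM in 53 CD8 cells against 206 CPM in 56 CD4 cells, a ratio of 4.53 (3.77 to 5.44). The class II alpha gene si:busm1-266f07.2 (mhc2daa) stood at 502 CPM in 50 CD8 cells against 82.6 CPM in 23 CD4 cells, a ratio of 6.07 (4.62 to 8.01). The class II beta gene mhc2dab stood at 171 CPM in 24 CD8 cells against 41.3 CPM in 10 CD4 cells, a ratio of 4.14 (2.68 to 6.39). The beta genes zgc:103700 (mhc2dhb) and CU929676.1 (mhc2dgb) were 7.56-fold (4.67 to 12.5) and 5.12-fold (2.67 to 9.95) higher in CD8 cells. Of 19 class II features in the files, 10 had a marrow UMI and 6 had at least 30 UMIs in CD8 and CD4 cells together. All 6 were more than 2-fold higher in CD8 cells, where 7.01% of all genes with that many UMIs were. Among them, zgc:103700 reached 30 UMIs only through the CD8 cells. This set was assembled by symbol after cd74a, cd74b and mhc2dab had been seen to be high, so its count is a description. Class II genes have near-identical copies, and reads could be divided among them, so the sum over the set is the firmer value.

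Summed over the set, class II UMIs stood at 3313 CPM in CD8 cells (3097 to 3540) and 669 CPM in CD4 cells (622 to 719), and 67 of 68 CD8 cells held one, with a median of 9. The CD8 level was spread over the cells, since no CD8 cell held more than 6.31% of it. In CD4 cells 1 cell held 34.2% of the sum. Macrophage markers were also found there: 10 of 11 had UMIs in the CD4 cells, with up to 304 UMIs of the list in 1 cell. Without the 3 CD4 cells that held a B cell or macrophage UMI other than cd74a, a choice made after seeing the data, the CD4 sum was 280 CPM (249 to 314) and cd74a stood at 75.0 CPM. The class II sum did not differ beyond counting error between CD8 cells with il2rb, at 3277 CPM (2898 to 3691), and without it, at 3329 CPM (3069 to 3607). In the other groups it was higher with il2rb: 1150.4 CPM (864 to 1501) against 648 CPM (600.1 to 698) in CD4 cells, and 2051 CPM (1980.4 to 2124) against 1581 CPM (1514 to 1650) in coreceptor-negative cells. In the 10 CD4 cells with il2rb 1 cell held 40.7% of the sum, and the CD4 cells without il2rb stood at 239.6 CPM once the cells with macrophage or B cell UMIs were left out. A cd74a UMI was found in 82.6% of coreceptor-negative cells with il2rb and 49.7% of those without. The 13 erythroid cells of the marrow, at a median depth of 7088 UMIs, held 0 cd74a UMIs, and 1 of 12 neutrophils, at 8564 UMIs, held any. Barcodes under 100 UMIs carried 352 CPM of cd74a.

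**Figure D2:**
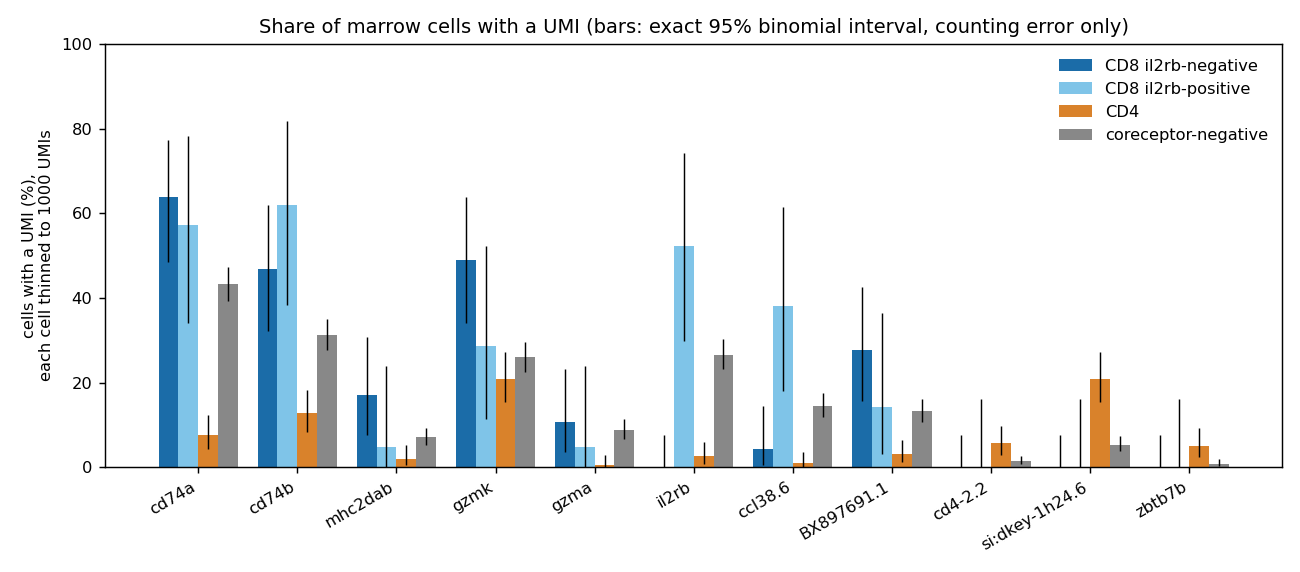
Share of marrow cells with a UMI of each gene after thinning every cell to 1000 UMIs (y axis, percent), with exact 95% binomial intervals, for CD8 cells without (dark blue) and with il2rb (light blue), CD4 cells (orange) and coreceptor-negative cells (grey). The cd74a share is 61.8% over all CD8 cells against 7.65% of CD4 cells, and the gzmk share is 42.6% against 20.9%.

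The granzyme gene gzmk (ENSDARG00000028780), which encodes a serine protease of cytotoxic granules and was given as a marker of these cells, was not restricted to them. It had 130 UMIs in 44 of 68 CD8 cells, with a median of 1 and a maximum of 9. It also had UMIs in 116 of 196 CD4 cells and 352 of 636 coreceptor-negative cells. Levels were 494 CPM in CD8 cells (413 to 586), 356 CPM in CD4 cells (322 to 393) and 347 CPM in coreceptor-negative cells (325 to 369). The ratio of CD8 to CD4 cells was 1.39 (1.13 to 1.69). It was 1.96 (1.56 to 2.45) once 11 cycling CD4 cells, described below, were set aside. None of the 13 erythroid cells and 2 of the 12 neutrophils held a gzmk UMI. In barcodes under 100 UMIs, cd8a, cd8b and gzmk together stood at 327 CPM, of which cd8a and cd8b gave 43.6 CPM.

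Across 3424 genes with at least 30 UMIs in both groups together, 240 genes (7.01%) were more than 2-fold higher in CD8 than in CD4 cells, and 219 (6.4%) were more than 2-fold lower. Ratios for this count were taken after adding 3 UMIs to each group. The added UMIs raise the group with fewer UMIs in total more, here the CD8 cells. The higher and lower shares are therefore not to be weighed against each other. Many genes on the lower side belonged to the cell cycle. Of 18 proliferation genes with enough UMIs, 17 were lower in CD8 cells, where 6.4% of all genes were. Their median log2 ratio was −2.36 against 0.15 over all genes. Among them was stmn1a, a tubulin-binding protein gene of dividing cells, with 2 UMIs in 1 CD8 cell and 253 UMIs in 23 CD4 cells. Another was pcna, with 7 and 251 UMIs. Both reached 30 UMIs only through the CD4 cells, so the count and median are no support for a direction. The UMIs of proliferation genes in CD4 cells came largely from 11 cells with at least 5 UMIs of mki67 and top2a, which are made in dividing cells. Those 11 cells had a median of 22025 UMIs, and 0 of 68 CD8 cells qualified, which allows a share of up to 4.41% with 3 cells set for a count of 0. The deepest CD8 cell held 11398 UMIs, so depth also limits which cells could qualify.

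The comparison was therefore also made without the cycling cells. Of 2563 genes, 173 (6.75%) were then more than 2-fold higher and 58 (2.26%) more than 2-fold lower in CD8 cells. None of the 4 remaining proliferation genes was past 2-fold. The cells set aside were chosen by mki67 and top2a, which are on the same list, so this is a description. Genes given below as higher or lower were past 2-fold both with and without the cycling cells, unless a sentence says otherwise.

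**Figure D3:**
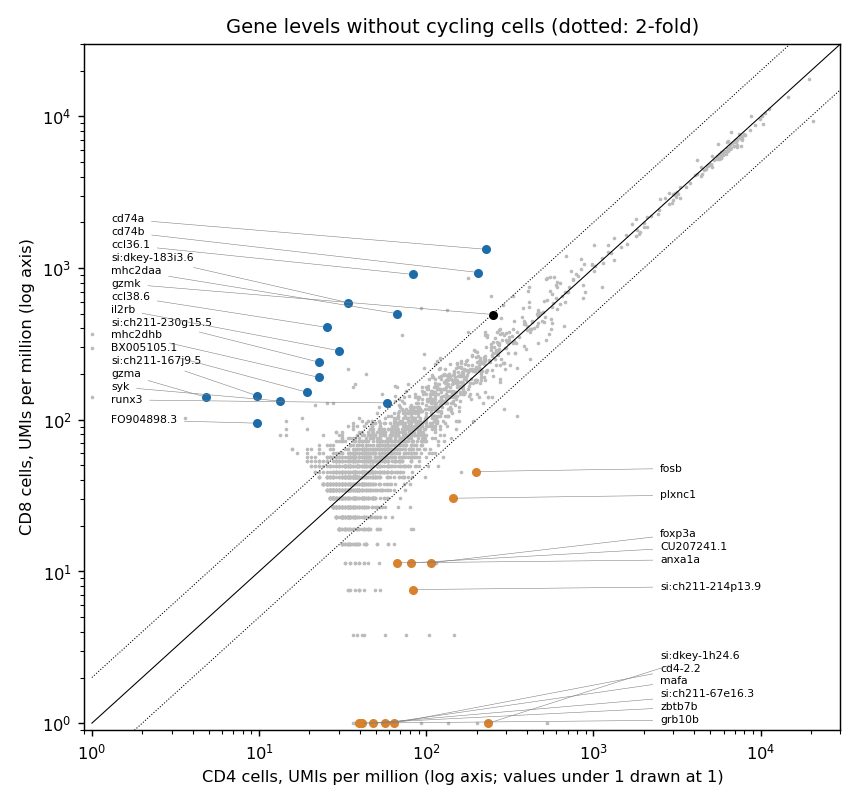
Level of each gene in CD8 cells (y axis, CPM, log scale) against CD4 cells without cycling cells (x axis, CPM, log scale), with dotted lines at 2-fold and levels under 1 CPM drawn at 1. Blue points are named genes higher in CD8 cells and class II genes, orange points are named genes lower in CD8 cells, and gzmk is black, just inside the 2-fold line at 1.96-fold.

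Genes of killing and of killer cell chemokines had the highest median ratio of the lists. Of 27 such features 6 had enough UMIs. Of these 6, 4 were more than 2-fold higher, where 7.01% of all genes were, and none was lower. Their median log2 ratio was 3.25 against 0.15 over all genes. Because gzma and ccl38.6 had enough UMIs only through the CD8 cells, the count and median are no support for a direction. The higher genes ccl36.1 and nkl.1 had enough UMIs in either group. The granzyme gene gzma (ENSDARG00000090380) had 37 UMIs in 12 of 68 CD8 cells and 4 UMIs in 4 of 196 CD4 cells, a ratio of 39.2 (14.1 to 151). The coreceptor-negative cells held it as well, with a UMI in 130 of 636 cells. The chemokine genes ccl38.6 and ccl36.1 were 18.1-fold (11.6 to 29.2) and 13.9-fold (10.6 to 18.3) higher in CD8 cells, each with UMIs in 17 CD8 and 6 CD4 cells. The NK-lysin gene nkl.1 (current symbol nkl.2), which encodes a pore-forming peptide of killer cells, had 96 UMIs in 7 CD8 cells and 59 UMIs in 5 CD4 cells. In coreceptor-negative cells with and without il2rb, ccl38.6 stood at 724 and 178 CPM and nkl.1 at 986 and 442 CPM. In CD8 cells these genes stood at 407 and 365 CPM, so neither was particular to CD8 cells. The remaining 2 genes, srgn and gzmk, were not past 2-fold.

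Signalling genes on the CD8 side included il2rb, which was used for the split and encodes the beta chain of the receptors for interleukins 2 and 15. It had UMIs in 21 of 68 CD8 cells and 10 of 196 CD4 cells, and stood at 285 CPM (224 to 357) against 22.4 CPM (14.5 to 33.1). Coreceptor-negative cells held il2rb as well, with a UMI in 316 of 636 cells. The kinase gene syk, which signals from activating receptors of B and NK cells, was 8.71-fold higher (4.75 to 16.6), with UMIs in 15 CD8 and 7 CD4 cells. In coreceptor-negative cells syk stood at 425 CPM with il2rb and 107 CPM without, against 133 CPM in CD8 cells. The calmodulin-dependent kinase gene camk1db was 8.47-fold higher (3.78 to 20.3) and had too few UMIs once the cycling cells were set aside. BX005105.1 (lamp3, a lysosomal membrane protein gene) was 10.6-fold higher (5.80 to 20.2), at 152 CPM in CD8 cells. In coreceptor-negative cells BX005105.1 stood at 356 CPM with il2rb and 66.0 CPM without. The unnamed gene BX897691.1 had UMIs in 34 CD8 cells and 26 CD4 cells, a ratio of 8.04 (5.08 to 13.0). It was the most widely caught of the 12 genes with the largest ratios. The others were si:dkey-183i3.6, si:ch211-167j9.5, FO904898.3 and si:ch211-230g15.5, all of unstated function. Of the genes in this paragraph, il2rb, syk, BX005105.1, si:dkey-183i3.6, si:ch211-167j9.5 and si:ch211-230g15.5 had enough UMIs only through the CD8 cells. Their direction is therefore a description.

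Genes tied to the CD4 lineage were on the other side, as was si:dkey-1h24.6. Those with 0 UMIs in CD8 cells had enough UMIs only through the CD4 cells, so their direction is a description. The gene si:dkey-1h24.6 (ENSDARG00000092653), for which the files give no function, had 218 UMIs in 107 of 196 CD4 cells and 0 UMIs in the 68 CD8 cells. It was 17.2-fold lower with 3 UMIs set for a count of 0, and the exact interval of the ratio was 0 to 0.0722. By the same setting cd4-2.2 was 5.12-fold lower (ratio 0 to 0.247). The transcription factor gene zbtb7b, which in mice directs thymocytes to the CD4 lineage, had UMIs in 36 CD4 cells and 0 CD8 cells. By that setting zbtb7b was 4.49-fold lower (ratio 0 to 0.283). The gene mafa (current symbol MAF), a transcription factor of helper T cells in mammals, had UMIs in 34 CD4 cells and 0 CD8 cells. It was 4.80-fold lower by that setting (ratio 0 to 0.264). On the opposite side of the lineage choice in mice, runx3 stood at 129 CPM in 22 CD8 cells (89.5 to 181) and 65.5 CPM in 36 CD4 cells (51.4 to 82.4), a ratio of 1.97 that was past 2-fold only with 3 UMIs added. In 4 of 14 other settings runx3 was under 2-fold. Within the CD8 cells it stood at 242 CPM with il2rb and 77.6 CPM without, so the CD8 level was not even across the split.

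Helper and regulatory genes followed that order. Of 9 with enough UMIs, 4 were more than 2-fold lower in CD8 cells, where 6.4% of all genes were, and none was higher. All 4 reached 30 UMIs through the CD4 cells, so the count is no support for a direction. The regulatory T cell factor foxp3a had 3 UMIs in 2 CD8 cells and 102 UMIs in 28 CD4 cells. The helper cytokine gene il21 and the costimulatory receptor gene tnfrsf18 had 0 UMIs in CD8 cells and 33 and 42 UMIs in CD4 cells, in 7 and 11 cells. The helper ligand gene cd40lg was not past 2-fold, at 38.0 CPM in CD8 cells (18.2 to 69.9) and 51.2 CPM in CD4 cells (38.8 to 66.3).

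Further genes, most of them outside these lists, were among the 12 with the largest differences on the lower side once the cycling cells were set aside. The semaphorin receptor gene plxnc1 had UMIs in 7 of 68 CD8 cells and 78 of the 185 remaining CD4 cells, a 4.73-fold difference. The annexin gene anxa1a was 5.83-fold lower, and the AP-1 gene fosb was 4.37-fold lower, with UMIs in 4 CD8 and 65 CD4 cells. The adaptor gene grb10b had 0 UMIs in CD8 cells and was 3.50-fold lower with 3 UMIs set for that count (ratio 0 to 0.372). All of these genes had enough UMIs only through the CD4 cells, so their direction is a description.

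Most homing and survival genes lay within 2-fold. Of 19 naive, memory and egress genes with enough UMIs, 3 were more than 2-fold higher in CD8 cells and 2 lower, against 7.01 and 6.4% of all genes. The interleukin 7 receptor gene il7r, which carries a survival signal for resting T cells, had UMIs in 11 of 68 CD8 and 93 of 196 CD4 cells and was 3.13-fold lower, with a ratio of 0.319 (0.162 to 0.574). The integrin beta chain gene itgb2 was 4.61-fold lower, with UMIs in 4 and 46 cells. Both il7r and itgb2 had enough UMIs only through the CD4 cells. Their direction is therefore a description, and the count of lower genes is no support for a direction. The integrin alpha E gene itgae.2, whose product holds lymphocytes to epithelium in mammals, was 3.21-fold higher (2.12 to 4.83), and flna, for an actin crosslinking protein, 3.02-fold higher (1.45 to 6.15). The third higher gene, klf6a, was 2.02-fold higher and fell within 2-fold without the cycling cells. The chemokine receptor ccr7 stood at 198 CPM in CD8 cells (148 to 259) and 143 CPM in CD4 cells (121 to 167).

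The remaining lists held few genes past 2-fold, to be read against the same 7.01 and 6.4%. Of 11 T cell receptor and signalling genes, cd4-2.2 alone was lower and none was higher. Of 11 T lineage transcription factors, runx3 and id2a were higher and zbtb7b was lower, but 81.5% of the id2a UMIs in CD8 cells came from 1 cell. Of 11 cytokine receptor genes, il2rb and socs3b, a feedback inhibitor of cytokine signals, were higher and il7r was lower. Of 13 immediate early genes fosb alone was lower. The lower genes cd4-2.2, zbtb7b, il7r and fosb had enough UMIs only through the CD4 cells, and il2rb only through the CD8 cells. Their direction is therefore a description. None of 7 interferon response genes was past 2-fold, although stat1b was lower without the cycling cells, and no inhibitory receptor gene had enough UMIs to be compared, since tox and nr4a1, the genes of that list that did, encode transcription factors. Of 12 MHC genes the 3 class II genes cd74a, cd74b and mhc2dab were higher, while the 9 class I and antigen processing genes lay within 2-fold.

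The CD8 cells with and without il2rb differed in which CD8 chain was caught. Among 47 cells without il2rb, 36 held a cd8b UMI, a share of 76.6% (62.0 to 87.7%), whereas among 21 cells with il2rb, 5 did, a share of 23.8% (8.22 to 47.2%). The cd8a gene was caught alone in 16 of the 21 cells with il2rb and in 11 of the 47 without. Summed UMIs of cd8b were 9 and 69, and those of cd8a 40 and 57. Median depth was 3728 UMIs per cell with il2rb and 3514 without. Because 1 UMI of either chain was enough for membership, these shares describe the cells as chosen. Both genes belong to the rule and 27 of the 68 cells held 1 CD8 UMI, so the chains that a cell uses were not shown.

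Across 659 genes, 74 (11.2%) were more than 2-fold higher in the cells with il2rb and 22 (3.34%) were more than 2-fold lower. The cells with il2rb held 82698 UMIs and those without 180511, so the 3 added UMIs raised the side with il2rb more. These 2 shares are therefore not to be weighed against each other. The named higher side included killer cell genes. Of these, syk, ccl38.6 and nkl.1 had enough UMIs only through the cells with il2rb, so their direction is a description. The kinase gene syk had 34 UMIs in 14 of 21 cells with il2rb and 1 UMI in 47 cells without, a ratio of 74.2 with an interval from 12.4 to 3016. The chemokine gene ccl38.6 had UMIs in 13 of 21 cells with il2rb and 4 of 47 without, a ratio of 14.5 (8.22 to 27.6), and ccl36.1 was 6.10-fold higher (4.55 to 8.27), although 1 cell without il2rb held 60 of that side's 63 UMIs. The NK-lysin gene nkl.1 had 95 UMIs in 6 cells with il2rb, of which 41 were in 1 cell, and 1 UMI without. The granule proteoglycan gene srgn was caught in all 21 cells with il2rb and was 2.29-fold higher (1.59 to 3.31).

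Several genes were caught in most cells with il2rb. The unnamed gene si:ch211-165d12.4 had UMIs in all 21 cells with il2rb and 12 of 47 without, a ratio of 8.11 (4.96 to 13.8). BX248082.1 (si:ch211-237b12.4) had UMIs in 18 and 6 cells, a ratio of 14.4 (9.52 to 22.7), and the kinase gene plk3 in 17 and 14 cells, a ratio of 8.29 (5.02 to 14.3). BX901920.1, CU914776.1, BX322618.1, CR753876.1 and si:ch211-167j9.5 were 11.6-fold to 29.5-fold higher, and the adhesion gene nptna was 8.42-fold higher (3.58 to 22.9). Apart from nptna, the genes named so far in this paragraph had enough UMIs only through the cells with il2rb. Their direction is therefore a description. Of 5 transcription factors with enough UMIs, id3, satb1b and runx3 were higher, where 11.2% of all 659 genes were. The E protein inhibitor gene id3 was 3.83-fold higher (2.90 to 5.09) and the chromatin organiser gene satb1b was 7.17-fold higher (2.98 to 19.8). Among the cells with il2rb, 1 cell held 41 of the 144 id3 UMIs and 9 of the 23 satb1b UMIs. The integrin gene itgae.2 had UMIs in 12 of 21 and 4 of 47 cells, a ratio of 5.21 (2.65 to 10.8).

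The lower side held single genes of the T cell lists beside several recirculation genes. Of the 5 T lineage factors bcl11ba alone was lower, and of 5 T cell receptor and signalling genes zap70 alone was lower and the adaptor gene sla2 was higher. On the scale with 3 UMIs added, most of these values depended on how members were found. The rule was also applied after thinning each cell to 1000 UMIs, which kept 27 CD8 cells. On that scale zap70, klf2a, p2rx1, mhc2dab, marcksl1a, il10rb and si:dkey-216e24.9, 7 of the 12 named lower genes, then turned to the higher side. With so few cells the 3 added UMIs can set the sign, so a reversal of the plain ratios was not shown. Under that rule bcl11ba, s1pr4, cox7b and gzmk stayed on the lower side but within 2-fold, at log2 ratios of −0.40, −0.49, −0.02 and −0.22. The values below are those of all 68 cells. The transcription factor gene bcl11ba, whose mouse counterpart commits cells to the T lineage, had UMIs in 32 of 47 cells without il2rb and 5 of 21 with, and was 4.84-fold lower with il2rb. The receptor-proximal kinase gene zap70 had UMIs in 24 and 3 cells and was 3.85-fold lower. The sphingosine-1-phosphate receptor gene s1pr4 had UMIs in 25 and 5 cells and was 3.51-fold lower, and klf2a, whose mouse counterpart drives such receptors, was 4.73-fold lower. The chemokine receptor genes ccr9a and cxcr4a were 2.27-fold and 3.55-fold lower with il2rb, and the ATP-gated channel gene p2rx1 was 4.47-fold lower. Of 11 naive, memory and egress genes these 5 were lower and 3 were higher, where 3.34 and 11.2% of all 659 genes were. Their median log2 ratio was −0.82 against 0.16 over all 659 genes. Among the lower genes, klf2a, p2rx1, s1pr4, zap70 and bcl11ba had enough UMIs only through the cells without il2rb. On the higher side of the naive, memory and egress list, itgae.2 had enough only through the cells with il2rb. The counts and the median are therefore no support for a direction.

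The granzyme gene gzmk was also on the lower side. It had UMIs in 35 of 47 cells without il2rb and 9 of 21 with, at 632 CPM (521 to 759) and 193 CPM (111 to 314), and was 3.26-fold lower with il2rb. The granzyme gzma was not past 2-fold on the added-count scale, at 172 CPM without il2rb (117 to 244) and 72.6 CPM with it (26.6 to 158). The class II beta gene mhc2dab was 3.67-fold lower with il2rb, at 221.6 and 60.5 CPM, unlike the class II sum. Another class II beta gene, zgc:103700 (mhc2dhb), went the other way, at 144 CPM without il2rb and 290 CPM with it. The cytochrome oxidase gene cox7b, the interleukin 10 receptor gene il10rb and marcksl1a were 5.73-fold, 3.21-fold and 4.12-fold lower. Enough UMIs of gzmk, mhc2dab, cox7b, il10rb and marcksl1a were reached only through the cells without il2rb. CR318588.1 was 4.50-fold lower, but 1 cell held 58.2% of its UMIs among the cells with il2rb.

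Of the 16 features on the NK or cytotoxic innate list, 5 had UMIs in the cells with il2rb, with a summed level of 2128 CPM, and 3 in the cells without, with a sum of 33.2 CPM, against 541 CPM in barcodes under 100 UMIs. That difference came almost wholly from 2 genes: il2rb, which made the split, gave 907 CPM, and nkl.1, caught in 6 cells, gave 1149 CPM. The others were nitr5 with 4 UMIs and eomesa with 1 in the cells with il2rb, tbx21 with 3 in the cells without, and prf1.1 with 1 and 2. The markers nitr9, nitr4a, nitr6b, dicp1.1, dicp2.1, nkl.4 and prf1.7 were at 0 in both. All 21 cells with il2rb held trbc1 by the rule, at 1487 CPM (1236 to 1775) against 1723 CPM (1537 to 1925) without il2rb. The part of NK cell RNA or of doublets in the split was not tested.

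**Figure D4:**
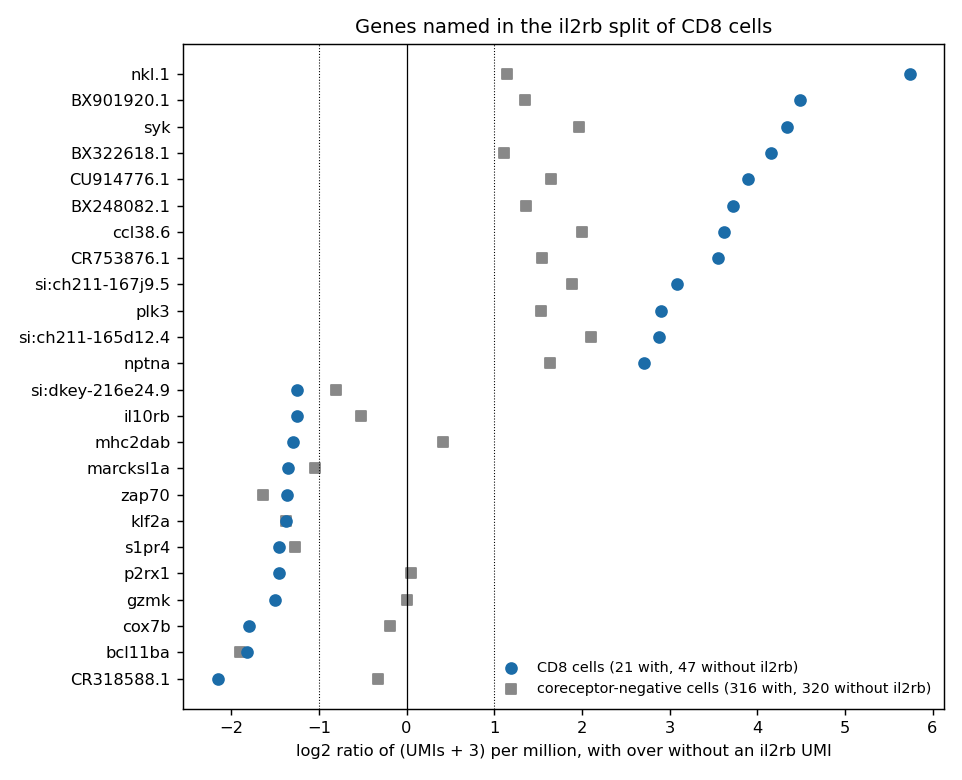
Log2 ratio of CPM (after adding 3 UMIs) in cells with over cells without an il2rb UMI, for the 24 genes named in the split, in CD8 cells (blue circles) and coreceptor-negative cells (grey squares), with dotted lines at 2-fold. All 12 higher genes lie right of the 2-fold line in both, whereas gzmk and p2rx1 lie near 0 in coreceptor-negative cells.

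The same split was made in the coreceptor-negative cells, which share no cell with the CD8 cells. There 316 cells with il2rb were set against 320 without, and of 5501 genes 212 (3.85%) were more than 2-fold higher and 153 (2.78%) more than 2-fold lower. All 12 genes named as higher in the CD8 split were more than 2-fold higher there too. Of the 12 named as lower, 5 were more than 2-fold lower, namely bcl11ba, zap70, klf2a, s1pr4 and marcksl1a, with log2 ratios of −1.90, −1.64, −1.37, −1.27 and −1.04. The log2 ratio of gzmk was 0.01 there against −1.50 in CD8 cells, that of p2rx1 0.05 against −1.46, and that of mhc2dab 0.42 against −1.30. With 1 library, the difference between the splits was not tested.

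By the same rule, the scale and thymus CD8 cells gave values to set beside those of the marrow. In the scale library cd74a had UMIs in 15 of 18 CD8 cells, at 929 CPM (705 to 1201), and 4 of 33 CD4 cells, at 120 CPM (61.9 to 209), and BX897691.1 had UMIs in 13 and 10 cells. Scale CD8 cells held gzmk in 5 of 18 cells, and il2rb in 2. In the thymus library, where 79.4% of 911 rule-positive cells held a UMI of rag1, a gene of immature thymocytes, cd74a had UMIs in 24.1% (21.4 to 27.1%) of cells with CD8 and 19.6% (15.8 to 23.8%) of those with cd4-1, at a median depth of 1179 and 1457 UMIs. Thymus cells with CD8 held il2rb in 0.878% and gzmk in 8.01%. Tissue, library and, for the thymus, sort gate cannot be told apart in these values.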

How the data were processed

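The values deposited by the authors are raw UMI counts for each gene in each barcode, without normalization. Cell Ranger 6.0.0 wrote the files of thymus and scale, and Cell Ranger 4 that of the marrow, per the file headers. The submitters' processing notes name Cell Ranger 6.0.0, Seurat 4.3.0 and GRCz11, and no coordinates are given here. Cells had at least 250 genes, at most 10% mitochondrial UMIs and at least 500 UMIs, or 1395 in the marrow, whose matrix lists all barcodes. That minimum is the percentile 99 of the 3000 largest UMI totals, divided by 10. No doublet caller was run. Of 31903 features, 29177 matched a current symbol. Counts were summed over cells, since each group is 1 library.

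Ratios used to count and rank genes had 3 UMIs added to each side, needed 30 UMIs in both groups together and were called past 2-fold, while printed folds are plain ratios. Named were the 12 genes with the largest ratio in each direction, caught in at least 10% of the cells of the higher group, with under 50% of that group's UMIs in 1 cell. A count of 0 was given the limit of 3 UMIs. Members and lists were chosen with earlier results of these data known. Marker symbols that were not matched included trac, trbc2, cd3e, cd4-2.1 and trgc1. Matched were 8 of 12 T cell, 5 of 6 gamma-delta or innate-like and 4 of 5 immature thymocyte symbols. The ratio script was tested on simulated data. Python 3.11.15, numpy 2.4.6, scipy 1.17.1, pandas 2.3.3 and matplotlib 3.10.9 were used.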

Additional observations from a re-analysis of the deposited data

Results flagged for a closer look

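Barcodes that the cell filter left out also carried CD8 transcripts. The 107 marrow barcodes with at least 500 UMIs but under the minimum held 10 cd8a and cd8b UMIs, 112 CPM (53.9 to 207), where 0 UMIs would have allowed up to 33.7 CPM. This is above the 43.6 CPM of barcodes with fewer than 100 UMIs and the 36.9 CPM over all called marrow cells. The 4-gene rule was met by 7 of the 107 barcodes and by 68 of the 983 called cells. The level is per UMI, so it does not show a larger share of CD8 cells among the barcodes left out. The 6 barcodes over the mitochondrial limit held 0 CD8 UMIs.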

How the results depend on the processing

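The number of CD8 cells was 41 when 2 CD8 UMIs were required and 27 when the rule was applied after thinning each cell to 1000 UMIs. The 240 genes higher than in CD4 cells became 102 with the thinned rule, 147 with each gene's highest cell left out, 72 with at least 60 UMIs, 1171 with at least 10 and 62 at 3-fold, and the 219 lower genes became 45 without cells over 3 times the median UMIs, 58 without cycling cells, 29, 86 with each cell weighed equally, 354 with 1 UMI added, 124 with at least 60 UMIs and 115 at 3-fold. For the il2rb split, the 74 higher genes became 29, 43, 24, 400 and 27 and the 22 lower genes 4, 34 with 1 UMI added, 12, 42 and 5. The log2 ratio of gzmk over CD4 cells moved from 0.49 to 0.95, 0.98 and 0.88 without the largest cells, without cycling cells and at equal weight. The thinned il2rb share, 16.2% of CD8 and 2.55% of CD4 cells, was 4.41 and 0.51% with at least 2 UMIs and 30.9% of CD8 cells unthinned. Reversed in direction were tuba8l and tubb2b (1.11 and 0.32 without the largest cells, 1.12 and 0.38 without cycling cells) and, with the thinned rule, pcna (1.08), pclaf (0.26), and in the split p2rx1 (0.60), il10rb (0.10), si:dkey-216e24.9 (0.29), zap70 (0.51), mhc2dab (0.40), marcksl1a (0.60) and klf2a (1.22). These reversals are on the scale with 3 UMIs added. The thinned rule keeps fewer cells, so the added UMIs weigh more and can set the sign. Other causes were not tested. Depth limits membership, since 27 cells rest on 1 CD8 UMI. No paired analysis was possible because each tissue has 1 library.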
